A study of Mus musculus with 12 samples.

Results

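Livers of mice on a diet that gives metabolic dysfunction-associated steatotic liver disease (MASLD) were compared after treatment with the nucleoside analogue Aza-TdC at its low dose and without treatment. The low dose is labelled 0.1x, a relative dose. The comparison rests on 6 of the 12 RNA-seq libraries of the series, 3 at 0.1x (samples 1, 3 and 4) and 3 on the MASLD diet alone (samples 3, 4 and 5), and the members described are the 13866 genes that passed an expression filter among 22984 genes with any count. Livers on a standard diet (SD, samples 3, 4 and 5) and on the MASLD diet with the 1x dose (samples 2, 4 and 5) give the levels on either side. All animals were C57BL/6 mice. The sources used here give no absolute dose, route, duration, diet composition, sex or age. Nothing in the labels ties the samples of a group to separate animals, and p-values cover only the spread among the samples given, part of which may be technical.

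Aza-TdC (5-aza-4′-thio-2′-deoxycytidine) is a deoxycytidine analogue. Cells phosphorylate it, build it into newly made DNA and there trap DNMT1, the enzyme that copies methyl marks on CpG dinucleotides to the new strand, so that DNMT1 protein is depleted and methylation is lost as cells divide. In mouse liver, several hepatocyte gene programmes are set by hormones and signals from outside the cell: the pulses of growth hormone seen in males act through the transcription factor STAT5 on male-biased genes such as those of the major urinary proteins, and interferons act through IRF and STAT factors on antiviral genes. Fatty liver disease brings lipid-laden hepatocytes together with lipid-associated macrophages, activated stellate cells and a ductular reaction. Neither DNA methylation nor protein was measured in the data described here.

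The 6 libraries held 30213048 to 35122964 counts in genes. Each of the 20 hepatocyte markers fixed for the tissue check passed the filter, and they summed to 125700 to 184900 CPM (counts scaled to a common library size) in the 6 libraries. A trend with transcript length ran along with the groups. In the quintile of genes with the shortest transcripts (up to 1393 bases) all 3 libraries at 0.1x lay above the mean of all libraries, with median deviations of 0.14, 0.34 and 0.15 on the log2 CPM scale for samples 1, 3 and 4, and all 3 MASLD libraries lay below it (−0.12, −0.16 and −0.22 for samples 3, 4 and 5). In the quintile with the longest transcripts (4229 bases or more) the order was turned around. The trend with GC content and length explained 35.6% of the variance of gene deviations in 0.1x sample 3 and 20.6% in MASLD sample 5, and 6.46 to 14.8% in the other 4 libraries. Since it separates the groups, it cannot be told apart from an effect of treatment on long and short transcripts. Calls against MASLD are therefore given below in counts as deposited and after this trend was removed from each library. A fold change given once, and each difference between the doses, is in counts as deposited unless the sentence names the trend. In the longest quintile the 1x libraries lay above the mean (0.24, 0.03 and 0.12 for samples 2, 4 and 5) and the 0.1x libraries below it. Differences between the doses therefore run along with the trend too.

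**Figure D1:**
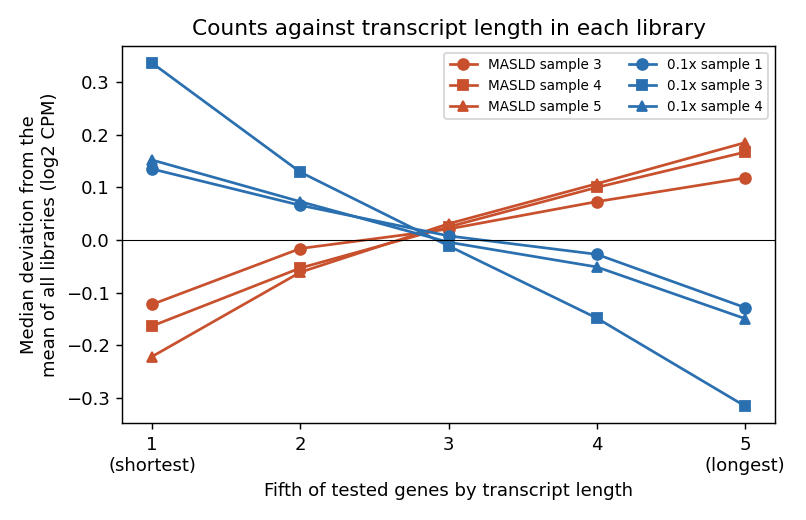
Median deviation of genes from their mean over all 12 libraries (log2 CPM, y axis) in the quintiles of transcript length (x axis), one line per library. Lines of the 3 libraries at 0.1x (blue) fall from left to right and those of the 3 MASLD libraries (red) rise, and 0.1x sample 3 is the steepest, from 0.34 in the shortest quintile to −0.32 in the longest.

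In counts as deposited, 1826 of 13866 genes (13.2%) passed an adjusted p of 0.05, by edgeR's quasi-likelihood test with Benjamini-Hochberg adjustment over all genes tested. Of these, 843 (6.08%) were higher and 983 (7.09%) lower at 0.1x. The higher genes had short transcripts (median 1075 bases) and the lower ones long transcripts (4858 bases), against 2565 bases over all genes tested. In the shortest quintile 20.2% of genes were called higher and 0.432% lower, and in the longest quintile 0.253% higher and 22.6% lower. Over the quintiles of GC content the shares varied less, from 4.58 to 6.96% higher and 5.70 to 8.91% lower. With the trend removed, 312 genes (2.25%) passed, 179 higher (1.29%) and 133 lower (0.959%), and 0.324% of the shortest and 1.77% of the longest quintile were called higher. The split of calls thus moved from 46.2% higher to 57.4% higher. Counts of list members below are to be read beside the shares over all genes tested. These were 6.08% higher and 7.09% lower as deposited, and 1.29% and 0.959% with the trend removed.

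Of the 1826 genes, 211 (1.52% of those tested) passed in both fits in the same direction, 97 higher (0.700%) and 114 lower (0.822%), and 0 passed in opposite directions. These 211 genes had median transcript lengths of 2510 bases (higher) and 3228 bases (lower), and 18 of the higher and 60 of the lower ones changed by 2-fold or more. Genes said below to have risen or fallen passed in both fits unless the sentence names 1 of them. The number of calls rested on single libraries: it was 594, 382 and 461 without MASLD sample 3, 4 or 5, and 1145, 1238 and 1599 without 0.1x sample 1, 3 or 4. In both fits together 3, 2 and 52 genes passed without MASLD sample 3, 4 or 5, 22 without 0.1x sample 1 and 91 without 0.1x sample 4, and 311 without 0.1x sample 3. For single genes and lists, losses in such runs are given below in counts as deposited unless the trend is named. With the trend removed more calls were lost. Onecut1, Mup7 and Cdkn1a lost theirs in 5 runs and C8b in 4, against 0 as deposited.

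**Figure D2:**
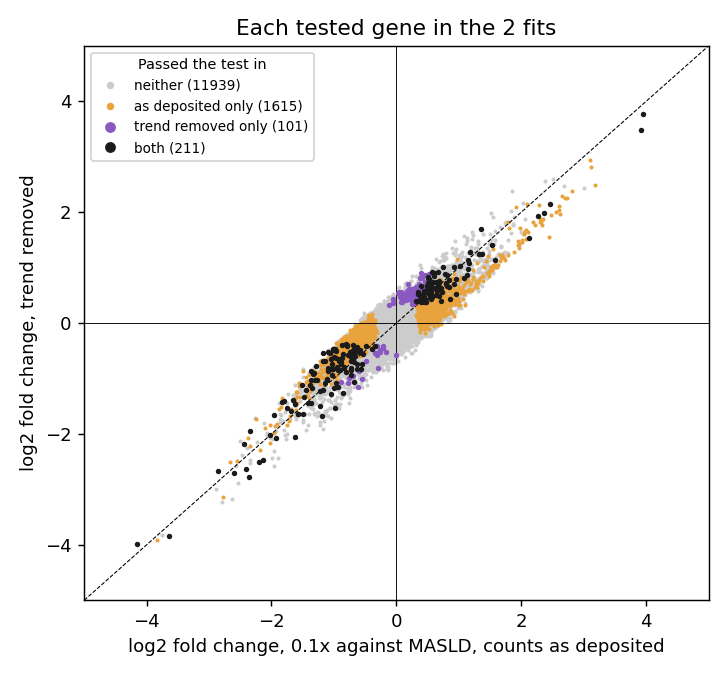
The log2 fold change of 0.1x against MASLD for each of the 13866 tested genes in counts as deposited (x axis) and after removal of the trend with GC content and length (y axis), with the line of equality dashed. Colours show where a gene passed: 1615 genes in counts as deposited only (orange), 101 with the trend removed only (purple), 211 in both (black).

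Of the 211 genes, 102 passed in counts as deposited without each of the 6 libraries in turn, and only 2 passed in both fits in all of these runs. These 2, named after their values were seen, were Rnf125 and Tubb2a, and both fell. Rnf125 (ENSMUSG00000033107, chromosome 18, 20944625 to 20983862, build mm10), an E3 ubiquitin ligase of the antiviral RIG-I pathway, stood at 49, 54.9 and 45.1 CPM in MASLD samples 3, 4 and 5 and at 18.3, 29.1 and 16.6 CPM at 0.1x in samples 1, 3 and 4. Its log2 fold change was −1.22 ± 0.20 (standard error, as for all fold changes below; adjusted p = 0.00513), and −1.50 ± 0.17 with the trend removed (adjusted p = 0.00523). Tubb2a (ENSMUSG00000058672, chromosome 13, 34074274 to 34078007), a beta-tubulin, went from 108, 109 and 119 CPM in MASLD to 46.1, 63.4 and 61.7 CPM at 0.1x, by −0.97 ± 0.14 (adjusted p = 0.00366) and −1.09 ± 0.13 with the trend removed. At 1x it lay lower still, at 34.7, 34.7 and 36.5 CPM, and in SD at 22, 28.9 and 32.2 CPM. In neither gene did the groups overlap, which was so for 16.8% of all tested genes in the upward and 18.7% in the downward direction.

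Among male-biased hepatocyte genes the members that passed were higher at 0.1x. Of 30 tested members of the list 12 rose in counts as deposited and 0 fell, and with the trend removed 4 rose and 0 fell, against 6.08% and 1.29% of all genes tested that were called higher. The median log2 fold change was 0.67 and 0.64 in the 2 fits, against −0.02 and 0.015 over all genes tested. The members that passed in both fits were Hsd3b5, Mup7, C8b and Slco1a1. The list's mean log2(CPM + 0.5) was 5.85, 5.66 and 6.04 in MASLD and 7.37, 6.43 and 6.49 at 0.1x, so 0.1x sample 1 stood above the other libraries of its group. In SD it was 8.36, 6.81 and 6.86, with sample 3 apart, and at 1x 6.42, 6.57 and 6.80. The count of 12 fell to 5 without 0.1x sample 1, and to 5, 4 and 7 without MASLD sample 3, 4 or 5. The list and its members were chosen with an earlier analysis of these libraries known and are no independent evidence of its direction.

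Hsd3b5 (ENSMUSG00000038092, chromosome 3, 98618634 to 98630252), a hydroxysteroid dehydrogenase of male liver that reduces steroids, had the largest rise of the genes called in both fits and named here. It stood at 2.5, 3.82 and 5.51 CPM in MASLD and at 134, 33 and 17.1 CPM at 0.1x, a log2 fold change of 3.95 ± 0.66 (adjusted p = 0.00558) and 3.77 ± 0.68 with the trend removed (adjusted p = 0.0188). Sample 1 was the highest of the 0.1x libraries and sample 4 the lowest, and the lowest was still above each MASLD library. Mup7, a major urinary protein that carries pheromones, rose by 3.92 ± 0.78 (adjusted p = 0.0112), from 26.6, 12.3 and 38.6 CPM to 846, 173 and 153 CPM, again with sample 1 far above samples 3 and 4. C8b, a chain of complement component C8, went from 43.8, 45.4 and 66.7 to 164, 88.8 and 97.9 CPM (1.17 ± 0.23, adjusted p = 0.0107). Slco1a1, an organic anion transporter, rose by 0.67 ± 0.18 (adjusted p = 0.0287) but lost its call on leaving out MASLD sample 3 or 4 or 0.1x sample 1 or 3 (adjusted p 0.0202 to 0.108 over the 6 runs that each leave out 1 library, as in later ranges of this kind). Serpina1e, an alpha-1-antitrypsin gene, differed by 3.10 ± 0.71 as deposited and passed there (adjusted p = 0.0157), with 1500.0, 145 and 376 CPM at 0.1x, and missed the threshold with the trend removed (adjusted p = 0.0515). It did not pass without 0.1x sample 1 or any 1 of the MASLD samples (adjusted p 0.00885 to 0.0673).

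Reads of the Mup, Serpina1 and Hsd3b families can be shared between near-identical copies, so the value of a single member is uncertain. Mup3, whose transcript is short, passed as deposited (1.18 ± 0.21, adjusted p = 0.00707) and not with the trend removed (0.70 ± 0.21, adjusted p = 0.0897). Igf1, the growth hormone target that circulates as a growth factor, did not pass (0.47 ± 0.16, adjusted p = 0.0669). Between the doses Hsd3b5 differed by 0.30 ± 0.56 (0.1x against 1x, adjusted p = 0.763) and Mup7 by 0.85 ± 0.70 (adjusted p = 0.445), and neither passed. The comparisons with MASLD and with 1x share the 0.1x libraries, here and below. Of 21 tested female-biased genes 0 rose and 1 fell, in both fits, and this was Cyp2b10, described below.

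**Figure D3:**
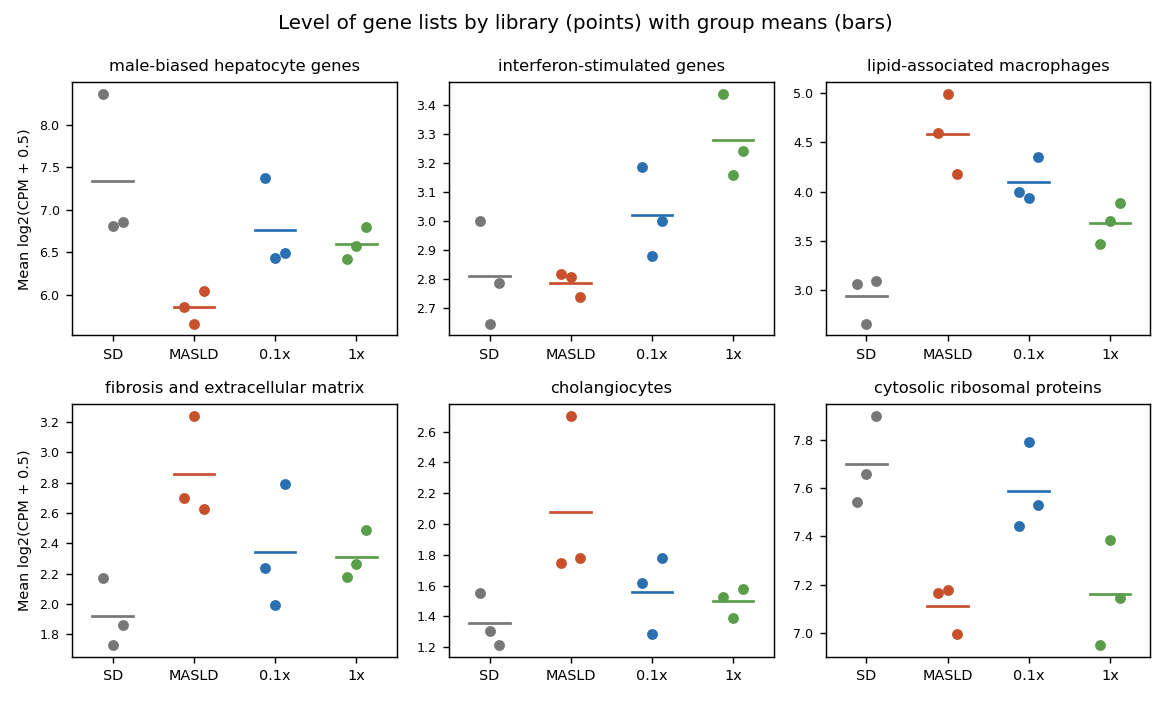
Mean log2(CPM + 0.5) of the genes of 6 lists (y axis, scaled per panel) in each of the 12 libraries (points) with group means (bars), for SD, MASLD, 0.1x and 1x. In the male-biased list the 3 libraries at 0.1x (6.43 to 7.37) lie above the 3 MASLD libraries (5.66 to 6.04), while the fibrosis and cholangiocyte lists overlap between these groups.

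The interferon-stimulated genes that passed were higher too. Of 62 tested members 13 rose and 0 fell in counts as deposited, 6 rose and 0 fell with the trend removed, and the medians were 0.31 in each fit. The list's mean log2(CPM + 0.5) was 2.82, 2.81 and 2.74 in MASLD and 3.19, 2.88 and 3.0 at 0.1x, and the groups did not overlap. The count of 13 fell to 6, 2 and 3 without MASLD sample 3, 4 or 5 and to 7 without 0.1x sample 1. The members called in both fits, named since they are few, were Apol9a, Apol9b, Irf1 and Irf9. Irf1, an interferon-induced transcription factor, stood at 13.9, 13.9 and 14.6 CPM in MASLD and 21.4, 21.1 and 24.5 CPM at 0.1x (0.66 ± 0.15, adjusted p = 0.0158). Irf9, the DNA-binding part of the complex that type I interferon activates, went from 20.4, 20.8 and 19.05 to 26.6, 26.9 and 26.9 CPM (0.42 ± 0.12, adjusted p = 0.0328), and missed the threshold in each run that left out 1 library (adjusted p 0.0553 to 0.113). Irf1 missed it without any 1 of the 3 MASLD samples (adjusted p 0.0249 to 0.0646). Isg15, a ubiquitin-like modifier, and Psmb8, an immunoproteasome subunit, passed as deposited only, at 0.81 ± 0.18 and 0.48 ± 0.11. With the trend removed they stood at 0.41 ± 0.18 (adjusted p = 0.251) and 0.38 ± 0.10 (adjusted p = 0.0618), and neither passed as deposited without MASLD sample 4 or 5 (Psmb8 also without 0.1x sample 1).

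Apol9a and Apol9b are interferon-inducible members of the apolipoprotein L family and near-identical copies on chromosome 15, so reads may be shared between them. Apol9a went from 18.3, 11.3 and 17.3 CPM in MASLD to 49.3, 41.2 and 44.6 CPM at 0.1x, a log2 fold change of 1.53 ± 0.19 (adjusted p = 0.00262) and 1.40 ± 0.20 with the trend removed (adjusted p = 0.00924). Apol9b went from 25.8, 18 and 32.4 to 74.9, 53.4 and 69.8 CPM, by 1.38 ± 0.19 and 1.25 ± 0.18 in the 2 fits. All 3 treated libraries lay above all 3 MASLD libraries in both genes, which was so for 16.8% of all tested genes. At 1x both genes lay higher again, Apol9b at 116, 95.3 and 106 CPM (0.1x against 1x −0.68 ± 0.18, adjusted p = 0.0272). Apol9a at 1x stood at 75, 52.1 and 57.3 CPM, a difference between the doses of −0.45 ± 0.19 that did not pass (adjusted p = 0.12). Apol7a, another member of the family, rose by 0.79 ± 0.12 (adjusted p = 0.00433), from 32.6, 32.1 and 33.6 to 55.8, 62 and 52 CPM. These 3 were the members called in both fits among 32 tested genes of apolipoproteins and VLDL assembly, of which 7 rose and 0 fell as deposited (4, 3 and 4 rose without MASLD sample 3, 4 or 5, 12 without 0.1x sample 3 and 4 without 0.1x sample 4). Apoc3, an inhibitor of triglyceride clearance with a short transcript, passed as deposited (0.64 ± 0.14) and not with the trend removed (0.16 ± 0.11, adjusted p = 0.466), nor as deposited without MASLD sample 4.

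The 250 bases before the start of both Apol9 genes are shown because they share the letters that interferon factors are known to bind. The motif searched was GAAANNGAAA on both strands, and its matches, which overlap each other, are in capitals in the reference sequence of RefSeq (GRCm38.p6, the same coordinates as mm10), 5′ to 3′ on the gene's strand. Entries whose start lay more than 1000 bases from the start of the gene in the annotation used for length and GC content were left out.
Apol9a, chr15:77411081-77411330, minus strand: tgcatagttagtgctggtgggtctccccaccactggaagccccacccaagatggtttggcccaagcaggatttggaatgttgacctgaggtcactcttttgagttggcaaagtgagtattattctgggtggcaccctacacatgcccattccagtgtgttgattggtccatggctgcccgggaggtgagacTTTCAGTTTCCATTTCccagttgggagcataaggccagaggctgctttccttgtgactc
Apol9b, chr15:77728822-77729071, plus strand: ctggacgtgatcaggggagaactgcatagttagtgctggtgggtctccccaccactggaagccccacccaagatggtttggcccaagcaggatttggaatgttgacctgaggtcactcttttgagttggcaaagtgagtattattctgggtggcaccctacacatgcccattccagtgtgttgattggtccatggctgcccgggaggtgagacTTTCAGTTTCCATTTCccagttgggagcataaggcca
Each window holds 2 matches, on the strand opposite to the gene, and the windows share an identical run of 228 bases. Of the interferon-stimulated genes called higher in counts as deposited, 11 of 13 had a promoter entry, and 5 of these 11 held a match, against 2.77% of the 9578 tested genes with an entry. Over the whole list 21 of the 42 members with an entry held one. Only 42 of 62 members had an entry, too few to compare the called members with the others. A match is a description of the letters and was not tested as a binding site. The other motif searched was TTCNNNGAA, a form that STAT factors are known to bind and that reads the same on both strands. It was held by 4 of the 11 windows of interferon-stimulated genes called higher, against 5.96% of the 9578. In the whole interferon list 10 of the 42 members with an entry held it, and called and other members were not compared. Only 7 of the 12 male-biased genes called higher had an entry, too few for a comparison, and 0 of these 7 windows held it.

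The windows of Onecut1 and Lcn2, among the genes that fell most, are shown with each CpG in capitals, since CpG is the site that DNMT1 methylates.
Onecut1, chr9:74861671-74861920, plus strand: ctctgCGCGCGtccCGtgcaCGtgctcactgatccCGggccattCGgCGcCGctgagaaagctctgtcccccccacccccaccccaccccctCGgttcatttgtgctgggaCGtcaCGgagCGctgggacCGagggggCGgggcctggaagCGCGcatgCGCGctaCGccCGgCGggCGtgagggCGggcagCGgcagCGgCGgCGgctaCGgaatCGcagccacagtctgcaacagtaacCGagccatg
Lcn2, chr2:32387740-32387989, minus strand: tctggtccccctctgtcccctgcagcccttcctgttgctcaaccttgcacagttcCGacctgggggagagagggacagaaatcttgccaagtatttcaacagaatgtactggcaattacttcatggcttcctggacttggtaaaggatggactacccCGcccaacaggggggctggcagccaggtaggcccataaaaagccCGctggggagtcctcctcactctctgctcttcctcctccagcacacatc
Onecut1 had 31 CpG in this window and Lcn2 had 3, and both genes fell. Apol9a and Apol9b, which rose, had 1 and 2 in the windows shown above. Of the genes called in both fits, 71 of 97 higher and 76 of 114 lower had an entry, under 80% of each set. Among all tested genes the share was 69.1%. The higher genes had a median of 15 CpG per window and the lower ones 19.5, beside 16 over all tested genes with an entry. The median ratio of observed to expected CpG was 0.73 and 0.746, beside 0.731. Whether the sets differ in CpG content was not tested, since genes without an entry are missing from both.

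Genes that handle pyrimidine nucleosides rose in part. Of 31 tested genes in a list of uptake, activation and breakdown of deoxycytidine analogues, 6 rose and 0 fell in counts as deposited, and 3 rose and 0 fell with the trend removed. The median was 0.23 and 0.15. Tk1, the cytosolic thymidine kinase that marks dividing cells, went from 9.12, 8.51 and 9.25 CPM in MASLD to 15.4, 20.1 and 16.3 CPM at 0.1x (0.95 ± 0.17, adjusted p = 0.00901; 0.79 ± 0.15 with the trend removed). It stood at 22.8, 31.6 and 37.2 CPM in SD and 20.6, 25.8 and 27 CPM at 1x, both higher than the treated libraries described here. Tk2, the mitochondrial kinase of thymidine and deoxycytidine, went from 19.4, 18.2 and 17.7 to 27.1, 30.1 and 24.2 CPM (0.56 ± 0.12, adjusted p = 0.0122), but lost its call on leaving out MASLD sample 5 (adjusted p 0.0137 to 0.0502). Upp2, a uridine phosphorylase of liver, went from 171, 138 and 231 to 264, 373 and 312 CPM (0.81 ± 0.18, adjusted p = 0.0138) and lost its call on leaving out MASLD sample 3 or 4 (adjusted p 0.0174 to 0.0623). The count of 6 fell to 2 without any 1 of the MASLD samples and to 3 without 0.1x sample 3. Neither Dck, the kinase that activates deoxycytidine analogues (−0.12 ± 0.22, adjusted p = 0.746), nor Cda, the deaminase that inactivates them (−0.12 ± 0.23, adjusted p = 0.773), passed.

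Among other cell cycle genes, of 47 tested, 2 rose and 5 fell as deposited, and with the trend removed 1 rose, Tk1, and 0 fell. The 5 that fell became 0 or 1 in each run that left out 1 of the 6 libraries, and the 2 that rose became 1 without any 1 of the MASLD samples or 0.1x sample 3. Rec8, a cohesin subunit of meiosis, rose from 5.5, 3.54 and 4.32 to 7.47, 7.55 and 12.1 CPM (1.02 ± 0.23, adjusted p = 0.0155; 1.04 ± 0.21 with the trend removed). It lost its call on leaving out MASLD sample 4 or 5 (adjusted p 0.0204 to 0.0705).

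Several hepatocyte enzymes and secreted proteins rose in both fits. Sult2a8, a liver sulfotransferase for bile acids, went from 286, 273 and 298 CPM to 685, 667 and 454 CPM (1.08 ± 0.16, adjusted p = 0.00359; 0.82 ± 0.12 with the trend removed), with 0.1x sample 4 below samples 1 and 3 and above each MASLD library. Klkb1, plasma prekallikrein of the contact pathway, went from 74.4, 76.2 and 78 to 157, 104 and 124 CPM (0.75 ± 0.16, adjusted p = 0.0133), and with its transcript of 5249 bases the rise was 1.02 ± 0.17 with the trend removed. Klkb1 and C8b were the members of 52 tested complement and coagulation genes called higher in both fits, and 6 rose and 1 fell as deposited (2 rose without MASLD sample 4 or 5 and 14 without 0.1x sample 3, and the 1 fell only in the run without 0.1x sample 1). Ces2a, a carboxylesterase, rose by 0.80 ± 0.15, from 141, 146 and 181 to 331, 219.7 and 260.5 CPM. Slc22a28, an organic anion transporter of liver, rose by 1.14 ± 0.21, from 2.7, 2.74 and 4.0 to 8.55, 6.04 and 6.26 CPM. S1pr5, a receptor for sphingosine-1-phosphate, rose by 1.17 ± 0.23, from 1.42, 1.54 and 1.56 to 4.12, 3.23 and 2.85 CPM.

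Of 34 tested sterol genes 3 rose and 2 fell as deposited, beside 6.08% higher and 7.09% lower over all genes tested. In both fits 1 rose and 1 fell, beside 0.700% and 0.822%. Fdft1, squalene synthase, was the 1 that rose in both fits (0.49 ± 0.15, adjusted p = 0.0401). It missed the threshold without MASLD sample 3, 4 or 5 or 0.1x sample 1 or 4 (adjusted p 0.0472 to 0.122). Amacr, a racemase of branched-chain fatty acid and bile acid synthesis, rose by 0.35 ± 0.10 (adjusted p = 0.0315) and was lost without any 1 of the MASLD samples or 0.1x sample 1 (adjusted p 0.0405 to 0.114). Commd1, which regulates copper export, rose by 0.67 ± 0.18 (adjusted p = 0.0287). It was lost without any 1 of the MASLD samples or 0.1x sample 3 (adjusted p 0.0268 to 0.11). At 1x Commd1 stood at 7.44, 11.9 and 8.8 CPM (0.1x against 1x 1.07 ± 0.18, adjusted p = 0.00574). These values overlapped those of MASLD, 14.1, 12.4 and 10.8 CPM, and 1x was not tested against MASLD.

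Small nuclear and mitochondrial proteins also appear among the leading rises. Pdcd5, a regulator of apoptosis, went from 23.9, 21.8 and 22.6 to 44.1, 42.1 and 37.5 CPM (0.86 ± 0.12, adjusted p = 0.00339), and its rise shrank to 0.43 ± 0.09 with the trend removed (adjusted p = 0.0356). Ss18l2 likewise went from 0.95 ± 0.19 to 0.53 ± 0.12. Ndufb2 and Ndufv2, subunits of respiratory complex I, were the 2 of 72 tested nuclear genes of oxidative phosphorylation that passed in both fits, Ndufb2 with 7.89, 6.77 and 6.31 CPM in MASLD and 14, 22.2 and 10.1 CPM at 0.1x (1.14 ± 0.26 and 1.15 ± 0.26) and Ndufv2 with 0.71 ± 0.14 and 0.40 ± 0.10. Ndufb2 lost its call on leaving out MASLD sample 4 or 5 or 0.1x sample 3 (adjusted p 0.0113 to 0.0634). The remaining leading rises, Cspg5, a chondroitin sulfate proteoglycan (1.36 ± 0.35), and Rd3, known from the retina (0.93 ± 0.24), lost their calls on leaving out any 1 of the MASLD samples (adjusted p 0.0192 to 0.097 and 0.0387 to 0.084). They were also lost without 0.1x sample 1 (Cspg5) and sample 3 (Rd3).

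**Figure D4:**
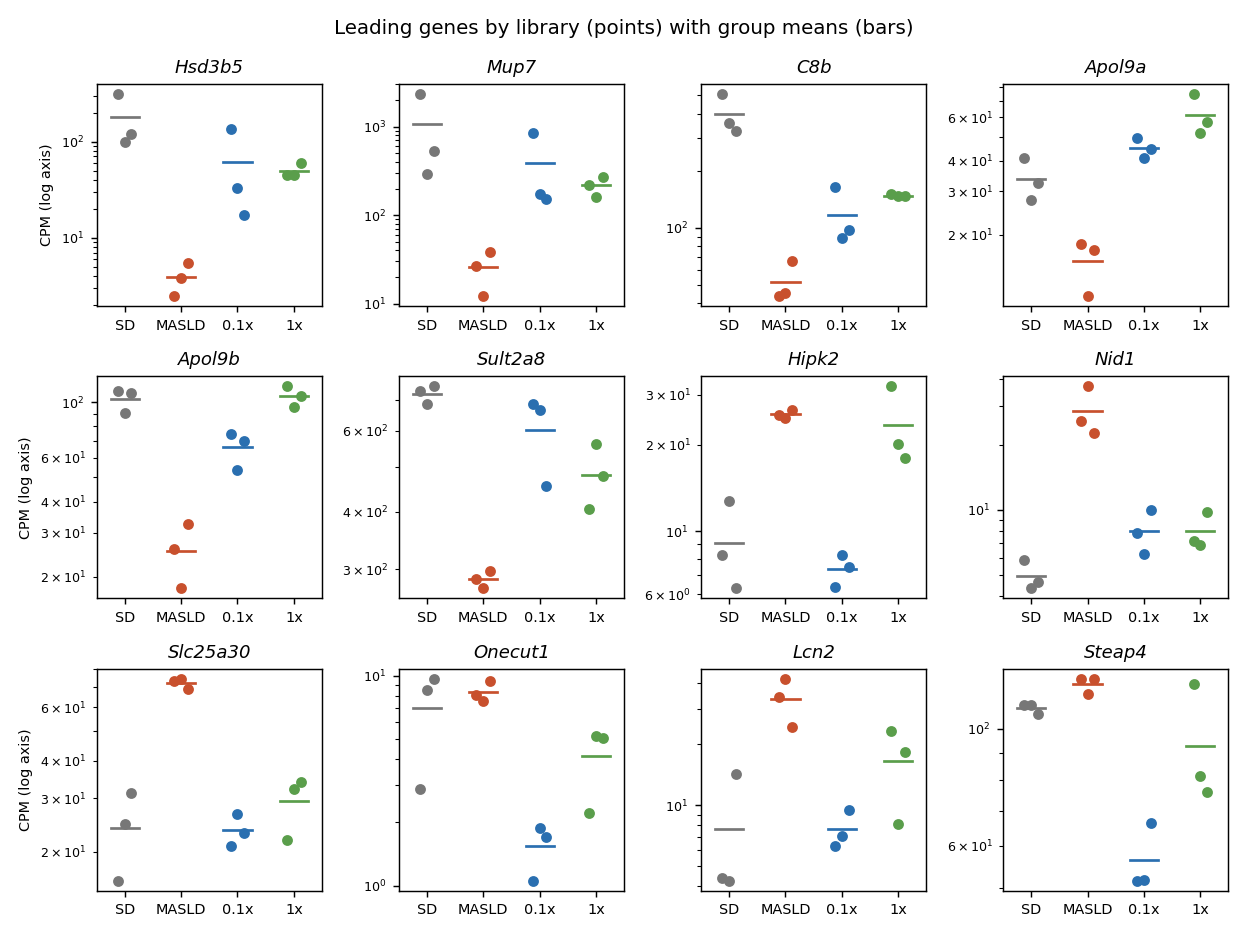
CPM (log axis, scaled per panel) of 12 genes called in both fits in each of the 12 libraries (points) with group means (bars), for SD, MASLD, 0.1x and 1x. In each panel the 3 libraries at 0.1x lie on one side of the 3 MASLD libraries, and Hipk2 at 1x lies near MASLD while Nid1 and Slc25a30 at 1x lie near 0.1x.

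Among the genes that fell, Hipk2 and Slc25a30 had closer replicates in MASLD and at 0.1x than Nid1. Hipk2 (ENSMUSG00000061436, chromosome 6, 38694390 to 38876165), a nuclear kinase that activates p53, stood at 25.4, 24.8 and 26.6 CPM in MASLD and 6.35, 8.23 and 7.47 CPM at 0.1x, a log2 fold change of −1.80 ± 0.24 (adjusted p = 0.00262) and −1.41 ± 0.23 with the trend removed (adjusted p = 0.0125). At 1x it stood at 32.1, 20.1 and 18 CPM, above 0.1x (difference −1.67 ± 0.24, adjusted p = 0.00289), and in SD at 8.22, 12.7 and 6.31 CPM. The 0.1x libraries thus lay near or within the range of SD, and the 1x libraries lay on both sides of MASLD. Nid1 (ENSMUSG00000005397, chromosome 13, 13437551 to 13512269), nidogen-1 of the basement membrane, went from 25.6, 37.2 and 22.6 to 7.78, 6.25 and 9.93 CPM (−1.83 ± 0.21, adjusted p = 0.00262; −1.42 ± 0.20 with the trend removed). Slc25a30, a mitochondrial carrier, went from 73.3, 74.5 and 68.7 to 20.9, 26.6 and 23 CPM (−1.62 ± 0.21, adjusted p = 0.00262; −1.47 ± 0.22 with the trend removed). At 1x Nid1 (7.19, 6.89 and 9.72 CPM) and Slc25a30 (21.9, 32.2 and 33.9 CPM) lay near 0.1x, with differences between the doses of 0.01 ± 0.21 (adjusted p = 0.98) and −0.32 ± 0.20 (adjusted p = 0.312). These 3 genes and the others that fell and for which no lost library is named passed as deposited without each of the 6 libraries.

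Liver transcription factors fell in few members, beside 7.09% of all genes tested called lower as deposited and 0.959% with the trend removed. Of 50 tested, 1 rose and 4 fell as deposited (2 fell without MASLD sample 3 or 4, and the rise was kept only in the run without 0.1x sample 3), and 0 rose and 2 fell with the trend removed, Onecut1 and Ppara. Onecut1 (ENSMUSG00000043013, chromosome 9, 74861921 to 74891781), hepatocyte nuclear factor 6, went from 8.12, 7.57 and 9.4 CPM in MASLD to 1.05, 1.88 and 1.7 CPM at 0.1x (−2.43 ± 0.41, adjusted p = 0.00581; −2.18 ± 0.44 with the trend removed). At 1x it stood at 2.21, 5.18 and 5.05 CPM (difference between the doses −1.42 ± 0.41, adjusted p = 0.0358), and in SD at 2.9, 8.55 and 9.68 CPM, with sample 3 below the other 2. Ppara, the nuclear receptor that switches on fatty acid oxidation in fasting, stood at 109, 114 and 136 CPM in MASLD, 43, 80.0 and 52.6 CPM at 0.1x and 149.7, 108 and 109.6 CPM at 1x. It fell against MASLD by 1.03 ± 0.21 on the log2 scale (adjusted p = 0.0116; −0.94 ± 0.21 with the trend removed) and differed between the doses by −1.06 ± 0.21 (adjusted p = 0.00879). Of 51 tested PPARA targets and fatty acid oxidation genes 1 rose and 2 fell as deposited, and Ppara itself was the 1 that passed in both fits. The median of that list was −0.003 and −0.004 in the 2 fits.

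In lipid metabolism Elovl7, an elongase of long-chain fatty acids, fell most. It stood at 1.06, 2.03 and 0.45 CPM in MASLD and at 0, 0.0616 and 0.131 CPM at 0.1x (−4.15 ± 0.81, adjusted p = 0.0107; −3.99 ± 0.82 with the trend removed), close to its level in SD (0.0341, 0 and 0.0291 CPM) and at 1x (0.0631, 0.024 and 0.159 CPM). Of 34 tested lipid synthesis genes 0 rose and 5 fell as deposited, and Elovl7 was the 1 that passed with the trend removed. The count of 5 was 2, 1 and 2 without MASLD sample 3, 4 or 5, and 3 without 0.1x sample 1 or 3. Abca1, the exporter of cholesterol to HDL, went from 115, 122 and 115 to 62.7, 49.7 and 56.2 CPM (−1.06 ± 0.14, adjusted p = 0.00262). With its transcript of 10262 bases the fall was −0.54 ± 0.09 with the trend removed (adjusted p = 0.0125). At 1x Abca1 stood at 137, 108 and 106 CPM (difference between the doses −1.06 ± 0.14, adjusted p = 0.00178). This difference is in counts as deposited, where the length trend also runs between 0.1x and 1x. Gbe1, the glycogen branching enzyme, went from 196, 200.4 and 199 to 109.7, 134 and 121 CPM (−0.71 ± 0.11, adjusted p = 0.00477; −0.67 ± 0.10 with the trend removed). Its list of glucose, glycogen and insulin genes had 0 of 39 higher and 5 lower as deposited, and 1 of each with the trend removed. Its count of 5 was 2, 1 and 1 without MASLD sample 3, 4 or 5, 3 without 0.1x sample 3 and 8 without 0.1x sample 4.

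Genes of fat storage passed in few members, and 0 of them passed in both fits. As deposited, 6.08% of all genes tested were called higher and 7.09% lower. Of 36 tested genes of lipid droplets, uptake and lipolysis 1 rose, Fabp1, and 2 fell as deposited. The 2 were Plin4, a droplet coat gene (−1.39 ± 0.34, adjusted p = 0.0195; −0.94 ± 0.33 with the trend removed, adjusted p = 0.134), and Fitm2, which helps droplets form (−0.53 ± 0.11, adjusted p = 0.0122; −0.26 ± 0.12, adjusted p = 0.258). Plin4 was lost without MASLD sample 3 or 5 or 0.1x sample 1 (adjusted p 0.0213 to 0.068), and Fabp1 without any 1 of the MASLD samples or 0.1x sample 3. With the trend removed 0 rose and 2 others fell, named after their values were seen, the fatty acid carrier Fabp4 (−0.82, adjusted p = 0.027) and the droplet enzyme Hsd17b13 (−0.58, adjusted p = 0.0477). Other members did not pass. The log2 fold change was −0.69 ± 0.25 for Cidec, which fuses lipid droplets (adjusted p = 0.081), −0.49 ± 0.23 for the fatty acid transporter Cd36 (adjusted p = 0.16) and −0.23 ± 0.13 for the droplet coat gene Plin2 (adjusted p = 0.256). Cidec stood at 248, 236 and 220.2 CPM in MASLD and 114, 169 and 153 CPM at 0.1x. These groups did not overlap, which was so for 18.7% of all tested genes in the downward direction. Scd1, the stearoyl-CoA desaturase, differed by −0.38 ± 0.19 (adjusted p = 0.182), and Fasn, fatty acid synthase, by −0.45 ± 0.34 (adjusted p = 0.388). Fasn has a transcript of 9192 bases, and with the trend removed its difference was 0.09 ± 0.29. Of the 35 tested genes that were named whatever their result, 2 rose and 5 fell as deposited and 1 and 4 in both fits. The other 28 ranged from −1.96 to 0.58.

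Acute phase genes passed in both directions. Over all genes tested 6.08% were called higher and 7.09% lower as deposited, and 0.700% and 0.822% in both fits. Of 42 tested acute phase genes 6 rose and 4 fell as deposited, and 1 rose and 3 fell in both fits. Lcn2, lipocalin-2, which binds bacterial siderophores, went from 34.2, 42.2 and 24.4 CPM in MASLD to 6.32, 7.09 and 9.5 CPM at 0.1x (−2.14 ± 0.43, adjusted p = 0.0116; −2.47 ± 0.44 with the trend removed). Steap4, a metalloreductase, went from 124, 116 and 124 to 51.5, 51.6 and 66.2 CPM (−1.11 ± 0.16, adjusted p = 0.00339), below its SD level of 111, 111 and 107 CPM. Orm2, an alpha-1-acid glycoprotein, went from 21.1, 21.9 and 15.4 to 13.9, 7.52 and 10.8 CPM (−0.86 ± 0.26, adjusted p = 0.0431) and was lost without any 1 of the MASLD samples or 0.1x sample 3 or 4 (adjusted p 0.0388 to 0.139). Socs3, the feedback inhibitor of cytokine signalling, rose from 2.42, 2.62 and 2.97 to 4.0, 3.76 and 6.06 CPM (0.79 ± 0.24, adjusted p = 0.0419) and was lost without any 1 of the MASLD samples or 0.1x sample 1 or 4 (adjusted p 0.0398 to 0.139). The count of 6 that rose fell to 0 without MASLD sample 3 or 4 and to 1 without MASLD sample 5 or 0.1x sample 1, and to 2 without 0.1x sample 4. The count of 4 that fell was 2 without MASLD sample 4 or 5.

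Over all genes tested, 7.09% were called lower as deposited and 0.959% with the trend removed. Of 33 tested iron and metallothionein genes 1 rose and 3 fell as deposited, and 0 rose and 3 fell with the trend removed. The 3 were Slc39a14 and, already counted among the acute phase genes, Steap4 and Lcn2. Slc39a14, a zinc and iron importer, went from 146, 139.7 and 167 to 88.3, 102 and 96.4 CPM (−0.66 ± 0.12, adjusted p = 0.00699). At 1x Slc39a14 stood at 175, 144 and 143 CPM (difference between the doses −0.69 ± 0.12, adjusted p = 0.00547). Hamp, hepcidin, with a transcript of 410 bases, passed as deposited only (1.21 ± 0.30, against 0.59 ± 0.30 with the trend removed, adjusted p = 0.302), and not without MASLD sample 3 or 4. Atp7a, a copper pump, fell from 2.56, 2.62 and 2.01 to 0.558, 1.02 and 0.688 CPM (−1.66 ± 0.32, adjusted p = 0.0103; −1.40 ± 0.30 with the trend removed).

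Few stress response and p53 genes passed in both fits. Over all genes tested 6.08% were called higher and 7.09% lower as deposited, and 1.29% and 0.959% with the trend removed. Of 39 tested genes of the unfolded protein and integrated stress response 0 rose and 7 fell as deposited, and 0 rose and 2 fell with the trend removed. Atf3, a stress-induced transcription factor, went from 1.92, 2.82 and 2.12 to 0.713, 0.924 and 0.655 CPM (−1.58 ± 0.37, adjusted p = 0.0168; −1.65 ± 0.36 with the trend removed) and was lost without MASLD sample 4 or 5 (adjusted p 0.028 to 0.0714). Eif2ak3, the stress sensor PERK, went from 19.12, 19.4 and 17.4 to 11.2, 11 and 12.7 CPM (−0.68 ± 0.15, adjusted p = 0.0135) and was lost without MASLD sample 4 (adjusted p 0.0206 to 0.0566). The count of 7 fell to 3, 0 and 1 without MASLD sample 3, 4 or 5 and to 4 without 0.1x sample 3. Of 40 tested p53 and DNA damage genes 2 rose and 5 fell as deposited (0 rose without any 1 of the MASLD samples, and 2, 3, 2 and 2 fell without MASLD sample 3, 4 or 5 or 0.1x sample 4). Cdkn1a, the cell cycle inhibitor p21, was the 1 that passed with the trend removed, and went from 26.8, 17.3 and 22.1 CPM in MASLD to 7.13, 9.3 and 6.98 CPM at 0.1x (−1.50 ± 0.31, adjusted p = 0.0122; −1.63 ± 0.31 with the trend removed). At 1x it stood at 26.8, 10.6 and 29 CPM (difference between the doses −1.50 ± 0.31, adjusted p = 0.0103).

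Genes of non-parenchymal cells fell in a few members, and in whole liver fewer cells of a type and less RNA per cell cannot be told apart. Of 19 tested markers of lipid-associated macrophages 0 rose and 3 fell, in both fits, and the median was −0.73 and −0.85. Mmp12, a macrophage elastase, went from 4.86, 8.49 and 2.97 to 0.806, 1.57 and 1.93 CPM (−1.92 ± 0.48, adjusted p = 0.0218). Anxa5 and Anxa2, annexins that many cell types express, fell by 0.73 ± 0.17 and 0.99 ± 0.24 on the log2 scale (adjusted p = 0.0182 and 0.0177), Anxa5 from 255, 262 and 205 to 143, 139.6 and 153 CPM. Anxa5 was lost without MASLD sample 3 or 4, and Mmp12 and Anxa2 were lost without MASLD sample 3 or 4 or 0.1x sample 1 (adjusted p over the runs 0.0335 to 0.0705 for Anxa5, 0.0317 to 0.113 for Mmp12 and 0.028 to 0.0766 for Anxa2). Trem2, the lipid receptor that defines these macrophages, did not pass, with 2.75, 3.59 and 0.98 CPM in MASLD and 0.651, 0.863 and 2.03 CPM at 0.1x (−1.05 ± 0.50, adjusted p = 0.167). The summed CPM of the 19 markers overlapped, at 1801 to 2129 in MASLD and 1547 to 1935 at 0.1x. The count of 3 was 0 without MASLD sample 3 or 4 and 1 without 0.1x sample 1. Of 20 tested Kupffer cell markers, genes of the resident macrophages, 0 rose and 1 fell as deposited and 0 with the trend removed.

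Of 59 tested fibrosis and matrix genes 0 rose and 5 fell as deposited, and 0 rose and 2 fell with the trend removed, with medians of −0.56 and −0.32. Over all genes tested 7.09% and 0.959% were called lower in the 2 fits. Ccn2, connective tissue growth factor, went from 11.7, 14.8 and 16.7 to 6.79, 7.55 and 9.89 CPM (−0.83 ± 0.18, adjusted p = 0.0134) and was lost without MASLD sample 4 or 5 (adjusted p 0.0123 to 0.0555). The other was Mmp12. Col4a1, a basement membrane collagen, passed as deposited only (−1.15 ± 0.26; −0.67 ± 0.23 with the trend removed, adjusted p = 0.124) and not without MASLD sample 4. Col1a1, the main fibrillar collagen, did not pass (−0.84 ± 0.70, adjusted p = 0.436), with 8.95, 22.1 and 7.5 CPM in MASLD and 3.66, 1.57 and 16.4 CPM at 0.1x, where sample 4 was within the MASLD range. Nor did Timp1, an inhibitor of matrix proteases, pass (−1.96 ± 0.62, adjusted p = 0.0512). The count of 5 was 0 without MASLD sample 4, 3 without MASLD sample 3 or 5 and 2 without 0.1x sample 1, and it was 18 without 0.1x sample 4.

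Of 22 tested stellate cell and fibroblast markers 0 rose and 4 fell as deposited (2 without MASLD sample 3 or 4, 8 without 0.1x sample 4), and 0 rose and 1 fell with the trend removed. The 1 was Hgf, the growth factor of hepatocytes that stellate cells make, which went from 4.17, 4.21 and 4.48 to 1.24, 2.16 and 2.13 CPM (−1.22 ± 0.24, adjusted p = 0.0109; −1.22 ± 0.23 with the trend removed). The 22 markers summed to 541 to 683 CPM in MASLD and 420 to 596 CPM at 0.1x. Of 15 tested cholangiocyte markers 0 rose and 2 fell as deposited (1 without MASLD sample 4 or 0.1x sample 1 or 3) and 0 with the trend removed, with medians of −1.15 and −0.68. Their mean log2(CPM + 0.5) was 1.75, 2.71 and 1.78 in MASLD and 1.62, 1.29 and 1.78 at 0.1x, and MASLD sample 4 stood above the other libraries. That library also stood apart from the other MASLD libraries in 20 pancreatic acinar markers, of which 4 were at 0 in all 6 libraries and 4 passed the filter. Their summed level was 22.5 CPM there against 9.81 and 9.09 CPM in MASLD samples 3 and 5, and 15 to 19.6 CPM at 0.1x, and their part in the cholangiocyte values was not tested. Pkhd1, the ciliary protein fibrocystin of bile ducts, passed as deposited (−1.23 ± 0.23) and narrowly not with the trend removed (−0.68 ± 0.17, adjusted p = 0.0582), and its transcript is 12935 bases long. Of 16 tested T and NK cell markers 0 passed in either fit by edgeR's test and 1 by DESeq2 (4 and 2 had an unadjusted p under 0.05), and of 14 tested B and plasma cell markers 0 by either tool (0 and 1).

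**Figure D5:**
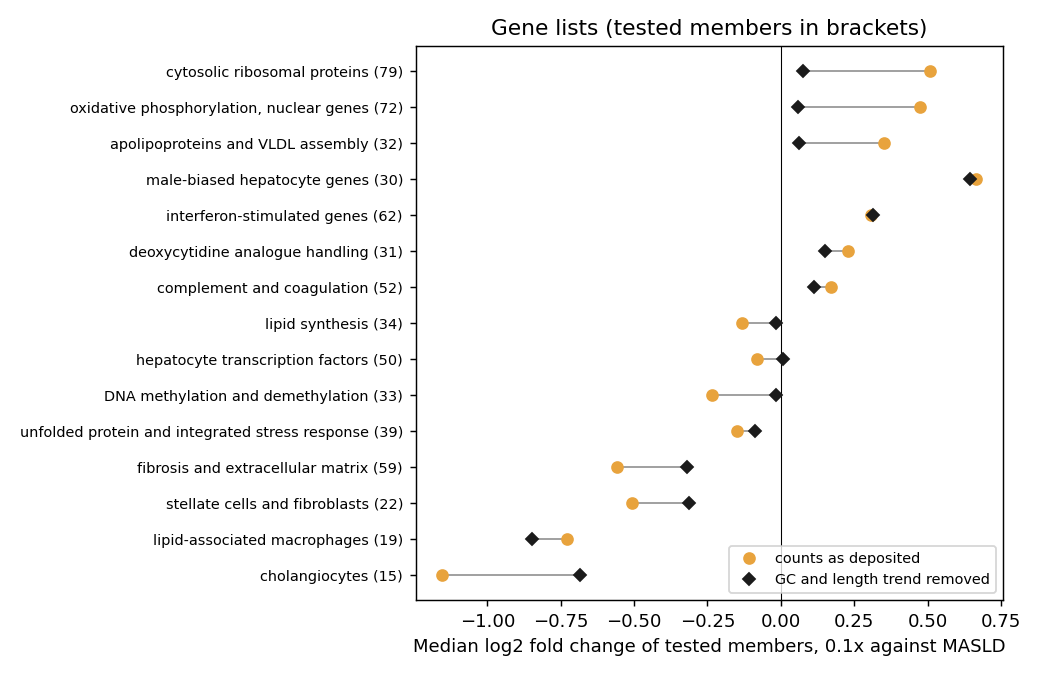
Median log2 fold change of 0.1x against MASLD (x axis) over the tested members of 15 gene lists (y axis), in counts as deposited (circles) and after the trend was removed (diamonds). The medians of ribosomal proteins (0.51 to 0.08) and oxidative phosphorylation (0.48 to 0.06) move most of the way to 0, while those of male-biased genes (0.67 to 0.64), interferon-stimulated genes (0.31 in each) and lipid-associated macrophages (−0.73 to −0.85) do not.

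Signalling and channel genes gave further falls. Lrrc8b, a subunit of the volume-regulated anion channel, went from 0.612, 1.62 and 1.01 to 0.217, 0.277 and 0.131 CPM (−2.35 ± 0.46, adjusted p = 0.0107; −1.95 ± 0.45 with the trend removed). Ano6, a lipid scramblase and ion channel, went from 12.1, 13.3 and 11.2 to 6.85, 5.95 and 6.75 CPM (−0.91 ± 0.18, adjusted p = 0.0112; −0.65 ± 0.16 with the trend removed). These were the 2 of 21 tested channel genes that passed in each fit, and both fell. Nrg1, a ligand of ERBB receptors, went from 2.06, 4.05 and 1.99 to 0.775, 0.585 and 1.15 CPM (−1.69 ± 0.38), and Mid1, a microtubule-bound ubiquitin ligase, from 1.64, 2.46 and 2.2 to 0.527, 0.37 and 0.983 CPM (−1.75 ± 0.38). Both were lost without MASLD sample 4 (adjusted p 0.0187 to 0.078 and 0.0117 to 0.0556). Ly6d, a surface protein, went from 38, 52.3 and 17.5 to 5.08, 15.9 and 13.9 CPM (−1.63 ± 0.48, adjusted p = 0.0393), beside 0.273, 0.253 and 1.77 CPM in SD. It was lost without MASLD sample 3 or 4 or 0.1x sample 1 or 4 (adjusted p 0.0444 to 0.165). Klhl11, an adaptor of a ubiquitin ligase, fell by 2.03 ± 0.49 on the log2 scale and was lost without MASLD sample 3 or 5 or 0.1x sample 1 or 4 (adjusted p 0.00556 to 0.0606).

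Of 47 tested genes of drug metabolism under the receptors CAR, PXR and AHR, 3 rose and 2 fell as deposited, and 1 rose and 3 fell with the trend removed. The shares of all genes tested were 6.08% higher and 7.09% lower as deposited, and 1.29% and 0.959% with the trend removed. The 3 that rose became 1 without MASLD sample 3 or 4 and 6 without 0.1x sample 3, and the 2 that fell became 1 without MASLD sample 4 or 5 or 0.1x sample 1 and 4 without 0.1x sample 4. Cyp2b10, the cytochrome P450 that CAR induces, stood at 17.6, 7.77 and 39.8 CPM in MASLD and 1.05, 4.47 and 5.18 CPM at 0.1x (−2.61 ± 0.63, adjusted p = 0.0187; −2.70 ± 0.64 with the trend removed). Its MASLD libraries spread 5-fold, and it was lost without MASLD sample 5 or 0.1x sample 1 (adjusted p 0.0297 to 0.0838). At 1x it stood at 14.1, 13.4 and 22.3 CPM (difference between the doses −2.22 ± 0.62, adjusted p = 0.0324). Gstm3, a glutathione transferase, went from 161, 187 and 108 to 65.8, 101 and 70.8 CPM (−0.94 ± 0.20, adjusted p = 0.0133; −1.16 ± 0.18 with the trend removed) and was lost without MASLD sample 4 (adjusted p 0.00925 to 0.0578). It was lower again at 1x (32.6, 35.5 and 46.7 CPM; 1.05 ± 0.20 between the doses, adjusted p = 0.00853).

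Genes of DNA methylation gave no call that held in both fits. Of 33 tested, 1 rose and 4 fell as deposited, and with the trend removed 0 rose and 0 fell, by edgeR's test (12 and 6 had an unadjusted p under 0.05 in the 2 fits, and DESeq2 called 2 higher and 5 lower as deposited). The 4 that fell became 0, 1 and 0 without MASLD sample 3, 4 or 5 and 2 without 0.1x sample 1 or 3. Dnmt1, whose protein Aza-TdC depletes, stood at 8.78, 8.82 and 9.75 CPM in MASLD and 6.2, 5.3 and 6.68 CPM at 0.1x. Its log2 fold change of −0.59 ± 0.17 (adjusted p = 0.0336) became −0.18 ± 0.15 with the trend removed (adjusted p = 0.569), for a transcript of 5507 bases. Dnmt1 also missed the threshold as deposited without any 1 of the MASLD samples or 0.1x sample 1 or 3 (adjusted p 0.0406 to 0.109). Mbd1, a reader of methylated CpG, went from −0.68 ± 0.15 (adjusted p = 0.0145) to −0.56 ± 0.14 (adjusted p = 0.0543) and was lost without MASLD sample 3 or 5. Tdg, a glycosylase of active demethylation, stood at −0.68 ± 0.20 and −0.53 ± 0.20, and Gadd45a, a stress gene linked to demethylation, at 1.05 ± 0.24 and 0.64 ± 0.23. Tdg was lost as deposited without any 1 of the MASLD samples or 0.1x sample 1 or 4, and Gadd45a without any 1 of the MASLD samples. The de novo methyltransferases Dnmt3a (−0.41 ± 0.18, adjusted p = 0.13) and Dnmt3b (−1.63 ± 0.74, adjusted p = 0.15) and the DNMT1 partner Uhrf1 (−0.86 ± 0.60, adjusted p = 0.349) did not pass. The sign of Dnmt3a turned with the trend removed (0.08 ± 0.18).

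Germline genes that promoter methylation is known to silence in body tissues were near or at 0. Of 47 listed, 4 passed the filter and 0 of these were called in either fit by edgeR's test or by DESeq2 (0 and 1 had an unadjusted p under 0.05 in the 2 fits), and 26 had no count in any of the 6 libraries, Ddx4, Mael and Sycp1 among them. A count of 0 limits the level only to what 3 counts per library would give. Of 26 tested imprinted genes 2 rose and 1 fell as deposited, and Commd1 was the 1 called in both fits. The 2 that rose became 0 without any 1 of the MASLD samples. The imprinted RNA H19 was below the filter, with 12, 27 and 10 counts in MASLD samples 3, 4 and 5 and 0, 0 and 1 counts in 0.1x samples 1, 3 and 4. That is 49 counts against 1, a ratio of 41.4 per library size with a 95% interval of 7.09 to 1670 that covers counting error only. An exact permutation test over the 6 samples, two-sided, gave p = 0.1, the smallest that 3 against 3 allows. Without a filter on low counts edgeR's test gave H19 an adjusted p of 0.000917. The counts were 0, 0 and 1 in SD and 3, 8 and 6 at 1x.

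The largest groups called in counts as deposited lost their calls when the trend was removed. Of 79 tested cytosolic ribosomal protein genes 45 rose and 0 fell as deposited, and 2 (Rps15a and Rps20) rose with the trend removed, with medians of 0.51 and 0.08. Of 72 tested nuclear genes of oxidative phosphorylation 36 rose and 0 fell, and 2 rose with the trend removed, with medians of 0.48 and 0.06. Of the 13 genes of the mitochondrial genome 0 passed in either fit, by edgeR's test or by DESeq2 (1 and 0 had an unadjusted p under 0.05), with medians of 0.41 and −0.09. Rps28, with a transcript of 370 bases, had 109.8, 115 and 102 CPM in MASLD and 165, 170.4 and 169 CPM at 0.1x, and its difference went from 0.63 ± 0.13 (adjusted p = 0.0122) to 0.06 ± 0.09 (adjusted p = 0.786). Uqcrb of respiratory complex III went from 0.70 ± 0.13 to 0.07 ± 0.12, and Fabp1, the abundant fatty acid binding protein of liver, from 0.73 ± 0.19 to 0.14 ± 0.14. The ribosomal count fell to 10, 11 and 2 without MASLD sample 3, 4 or 5 and to 17 without 0.1x sample 3, and the oxidative phosphorylation count to 11, 3 and 5 and to 13. Rps28 was lost without MASLD sample 5, and Fabp1 without any 1 of the MASLD samples or 0.1x sample 3.

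Long transcripts gave the mirror image. Reln, a secreted glycoprotein of stellate cells with a transcript of 11292 bases, went from 28.7, 34.5 and 29 CPM in MASLD to 18.2, 15 and 18.5 CPM at 0.1x, and its difference moved from −0.83 ± 0.13 (adjusted p = 0.0041) to −0.25 ± 0.10 with the trend removed (adjusted p = 0.195). Atm, the kinase that senses DNA breaks, moved from −1.21 ± 0.23 to −0.75 ± 0.23 (adjusted p = 0.0988), and Insr, the insulin receptor, from −0.61 ± 0.13 to −0.12 ± 0.09 (adjusted p = 0.524). Clock, a core factor of the circadian loop, moved from −0.80 ± 0.16 to −0.43 ± 0.13 (adjusted p = 0.0832). Dbp, a clock output gene with a shorter transcript, rose as deposited (0.43 ± 0.12, adjusted p = 0.029) and not with the trend removed (0.30 ± 0.10, adjusted p = 0.117). Insr was lost as deposited without MASLD sample 4 or 5, and Dbp without any 1 of the MASLD samples or 0.1x sample 1 or 4. The time of day at which tissue was taken is not given in the sources used here.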

How the data were processed

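Liver RNA of 12 samples was sequenced from stranded poly-A libraries, per the labels' protocols. The authors deposited a table of whole-number counts per gene, not normalized. The submitters' processing notes name STAR 2.7.3a and the build mm10, while for the counter, its strand setting and its annotation no source used here gives a name, so overlapping or near-identical genes may share reads. GENCODE vM21 gave names, lengths and GC content. Column names were matched to sample titles.

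Genes were filtered with filterByExpr by group, and TMM-scaled counts of all 12 libraries were tested with edgeR 4.0.16's quasi-likelihood test (R 4.3.3), Benjamini-Hochberg adjusted over all genes tested, with an adjusted p under 0.05 as the threshold. All 12 libraries share 1 estimate of the spread. In a second fit a smooth of GC content and log2 length (mgcv 1.9.3, basis dimension 10, log2 CPM with prior count 2, genes with a mean of at least 1 CPM) was fitted to each library's deviations and used as an offset. The 2 fits were checked on simulated libraries in which 200 genes differed, with no trend or with a GC trend added to the 0.1x libraries. A length trend was not simulated, so its removal was not checked in this way. The alternatives included DESeq2 1.42.0. Named genes are the 15 largest rises and falls called in both fits without overlap of the groups (the higher group at 1 CPM or more on average, no predicted genes or pseudogenes), up to 3 called members per list and direction with the smallest adjusted p, and a set of genes fixed by name; others are said to be chosen after their values were seen. The genes and lists were chosen with earlier results of these data known. Fold changes are 0.1x minus MASLD on the log2 scale.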

Additional observations from a re-analysis of the deposited data

How the results depend on the processing

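The 1826 calls (843 higher, 983 lower) became 312 (179 and 133) once the trend with GC content and length was removed, 116 (31 and 85) at an adjusted p under 0.01 and 284 (121 and 163) with a further 2-fold limit. The trend fit gave 16 (8 and 8) at 0.01. DESeq2 called 2487, of which 1291 were higher. Other scalings, filters and a fit of the 6 libraries alone stayed within 1.5 times, except for 114 higher calls with the trend removed in the 6 libraries. The higher share was 46.2% and 40.6 to 54.5% in these. Without 1 library the counts ran from 382 to 1599 (higher 135 to 758, lower 247 to 841) as deposited, from 2 to 445 (0 to 260 and 2 to 185) with the trend removed and from 2 to 311 in both fits. The trend fit without 0.1x replicate 3 gave 445 (260 and 185). The cause of these shifts was not tested.

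Samples of equal number (3 and 4) correlated at 0.066 and 0.074, against −0.054 to 0.072 for other pairs. So few pairs cannot show whether samples of equal number share more than a number. With the replicate number as a block the counts fell to 33 (8 and 25), to 0 (0 and 0) with the trend removed and to 0 in both fits. Cda turned to 0.134 under the block.

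Signs of genes that passed no test turned as follows. Dnmt3a stood at 0.077 with the trend removed, and there at 0.273 without MASLD sample 4, 0.016 without MASLD sample 5, and 0.050 and 0.233 without 0.1x sample 1 and 4. Fasn stood at 0.088, and there at 0.282 and 0.023 without 0.1x sample 3 and 4 and at 0.065 and 0.243 without MASLD sample 4 and 5. In the trend fit Dck stood at 0.024 without 0.1x sample 3 and 0.017 without MASLD sample 4, Scd1 at 0.005 without 0.1x sample 3 and Col1a1 at 0.152 without MASLD sample 4. Cda ran from −0.218 to 0.015 as deposited without 1 library, the latter without 0.1x sample 1. Fold changes of low genes such as Elovl7 and H19 are limited by depth.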
